A study of Homo sapiens with 31 samples.

Results

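The 6 genes described here are GAS8, DBNDD1, FABP6, ZBTB46, GRK1 and TTLL2. They lie at or near the 5 highest CTBP2 ChIP-seq peaks of unmodified MUTZ3 cells. They were selected on that readout, out of 20163 protein-coding genes. The peak counted for TTLL2 lies 33181 bp beyond its gene body. Peaks were ordered by fold enrichment, the ratio of ChIP signal at the summit of a peak to its local background. The 5 sites are ranks 1 to 5 of 16836 peaks. GAS8 and DBNDD1 are neighbours that share the highest peak. These values of unmodified MUTZ3 cells chose the genes and are given as a description.

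Peak lists of 13 of the 31 libraries of the study were used, and the other libraries, which include all inputs, were not analysed here. MUTZ3 and MOLM1 are human myeloid leukemia cell lines with a 3q26 rearrangement that activates EVI1. CTBP2 and EVI1 were profiled once each in unmodified MUTZ3 cells without treatment. CTBP2 was profiled once in MOLM1 cells, in an untreated clone that carries an inducible EVI1 shRNA, and in 2 libraries of MUTZ3 cells with retroviral 4xPLASS. Both targets were profiled in bulk MUTZ3 cells with a doxycycline-inducible 4xPLDLS vector after 72 hours, in 2 untreated and 2 dox-treated libraries per target, so the untreated cells carry the vector as well. The input of each treatment was not replicated, so a difference between treatments in fold enrichment may also hold a difference between inputs. The labels name no separate cultures behind the replicates, so their spread may be technical. Peak lists hold no gene expression, and the identity of the cells could not be checked against markers. The unmodified CTBP2 library was crosslinked with formaldehyde alone and the unmodified EVI1 and inducible libraries with DSG and formaldehyde. For the MOLM1 and 4xPLASS libraries the sources disagree on this step. List sizes ran from 6688 to 72214 peaks with medians of 4.842 to 6.661 in fold enrichment. Read depth is unknown, so a missing peak and a shallow library cannot be told apart.

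EVI1 is a zinc finger transcription factor encoded at MECOM that recruits the corepressors CTBP1 and CTBP2 through a short PLDLS motif. 4xPLDLS is a peptide with repeats of that motif that competes for CTBP, and 4xPLASS is its mutated control. Corepressors such as CTBP2 do not read DNA themselves and reach it through other proteins. Several of these, ZEB1 and ZEB2 among them, also carry a PLDLS-type motif and bind E-boxes of the form CAGGTG. No library of those factors was analysed here.

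The 6 genes have unrelated known roles. GAS8 encodes a subunit of the nexin-dynein regulatory complex of motile cilia. DBNDD1 encodes a protein with a dysbindin domain. FABP6 encodes the bile acid binding protein of the ileum. ZBTB46 encodes a transcription factor that marks classical dendritic cells. GRK1 encodes rhodopsin kinase of photoreceptors, and TTLL2 belongs to the tubulin tyrosine ligase family, whose members modify tubulin tails.

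All positions refer to hg19. The highest peak, with a fold enrichment of 70.97, covered 1419 bp of an intron of GAS8 at chr16:90098026-90099444, upstream of DBNDD1 (−12255 bp from its start). The second, at 60.76, lay in an intron of FABP6 at chr5:159624462-159625336, 10547 bp downstream of the start, where the antisense transcript FABP6-AS1 is also annotated. The third, at 54.25, was intergenic at chr6:167806172-167807050. TTLL2 has the nearest start, 68043 bp away, but the peak lies 33181 bp beyond the gene body and so just outside the window of gene body plus 30 kb used for the other members. It is called the TTLL2 distal site below. The fourth, at 48.99, lay in an intron of ZBTB46 at chr20:62446390-62447676, 16323 bp downstream of the start and within the antisense ZBTB46-AS1. The fifth, at 42.82, lay upstream of GRK1 (−1157 bp from its start) at chr13:114319594-114321071. The lists assign no peak to a gene, and whether any site acts on the named gene was not measured. The next peak down, rank 6, had a fold enrichment of 42.77, so rank 5 has no gap below it. Ranks 6 to 10 ran down to 38.11 and were all intergenic.

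The DNA at the summits of 4 of the 5 sites is shown because they had one feature in common that the ranking did not use. Each line gives 300 bases of the hg19 plus strand, with CAGGTG or its reverse complement CACCTG in capitals. The window at FABP6 held neither.
GAS8/DBNDD1, chr16:90098403-90098702: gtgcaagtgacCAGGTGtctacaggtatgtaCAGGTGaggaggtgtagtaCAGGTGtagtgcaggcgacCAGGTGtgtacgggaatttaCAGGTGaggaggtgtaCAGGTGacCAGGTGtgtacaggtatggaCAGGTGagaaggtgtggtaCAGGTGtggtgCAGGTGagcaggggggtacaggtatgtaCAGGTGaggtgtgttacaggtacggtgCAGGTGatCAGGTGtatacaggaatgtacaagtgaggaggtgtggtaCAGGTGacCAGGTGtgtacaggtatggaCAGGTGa
TTLL2 distal, chr6:167806452-167806751: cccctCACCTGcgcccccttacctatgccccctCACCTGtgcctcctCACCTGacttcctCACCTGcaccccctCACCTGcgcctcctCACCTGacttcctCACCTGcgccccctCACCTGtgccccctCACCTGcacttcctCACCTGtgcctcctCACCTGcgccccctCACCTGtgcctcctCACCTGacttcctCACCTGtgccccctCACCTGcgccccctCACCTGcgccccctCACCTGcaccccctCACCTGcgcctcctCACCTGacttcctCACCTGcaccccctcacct
ZBTB46, chr20:62446918-62447217: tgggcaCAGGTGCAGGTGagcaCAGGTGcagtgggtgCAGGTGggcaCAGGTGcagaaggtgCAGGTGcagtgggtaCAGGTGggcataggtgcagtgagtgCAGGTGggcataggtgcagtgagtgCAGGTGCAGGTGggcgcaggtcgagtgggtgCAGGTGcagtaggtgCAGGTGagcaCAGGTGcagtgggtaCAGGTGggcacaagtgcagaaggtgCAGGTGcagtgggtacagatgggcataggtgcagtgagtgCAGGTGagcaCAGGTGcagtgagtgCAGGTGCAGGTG
GRK1, chr13:114320163-114320462: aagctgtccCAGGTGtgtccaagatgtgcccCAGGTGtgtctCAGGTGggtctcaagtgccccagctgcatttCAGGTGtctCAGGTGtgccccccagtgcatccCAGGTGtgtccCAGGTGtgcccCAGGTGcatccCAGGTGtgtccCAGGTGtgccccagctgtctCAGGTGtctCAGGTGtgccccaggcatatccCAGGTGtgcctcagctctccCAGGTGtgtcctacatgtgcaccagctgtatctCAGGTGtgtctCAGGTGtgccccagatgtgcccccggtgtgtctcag

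CAGGTG was counted on both strands, and it occurred 20 times in the 300 bases of the TTLL2 distal site, 19 times at ZBTB46 and 16 times each at GAS8/DBNDD1 and GRK1. All copies of a site stood on 1 strand, the minus strand at the TTLL2 distal site and the plus strand at the other 3. Over the whole peak the copies numbered 43 at GAS8/DBNDD1, 37 at the TTLL2 distal site and 60 at both ZBTB46 and GRK1. Of the 16812 peaks of this list on chromosomes 1 to 22, X and Y, 24.0% had at least 1 copy in the same window. Only 153 peaks, or 0.910%, had 5 or more, a threshold set after the counts were seen. The 20 copies of the TTLL2 distal site were the highest count of any peak in this list, followed by the 19 at ZBTB46. Being 4 of the 5 highest peaks of the list, these sites are a description and carry no test.

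The arrays are repetitive and matched themselves best at different shifts. Self-match was taken as the highest share of bases equal to the base a fixed number of positions away, over shifts of 4 to 100 bp. It was 72.8% at a shift of 83 bp for the TTLL2 distal site, 70.2% at 65 bp for ZBTB46, 61.9% at 11 bp for GRK1 and 52.5% at 58 bp for GAS8/DBNDD1. The best shift need not be the length of the repeat unit, which was not determined. The median self-match of all peaks was 34.3%. FABP6, at 49.7%, was also above it and close to GAS8/DBNDD1. Of all peaks, 3.22% were higher than GAS8/DBNDD1 and 3.9% higher than FABP6. How reads that map to several copies were treated is not given in the sources used here, and the part of this in the fold enrichment was not tested.

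The same 4 sites lay near chromosome ends. The distance was 0.2562 Mb for GAS8/DBNDD1, 0.5785 Mb for ZBTB46, 0.8496 Mb for GRK1 and 3.308 Mb for the TTLL2 distal site, against 21.29 Mb for FABP6. Over all peaks the median was 28.5 Mb, and 11.6% lay within 5 Mb of an end. GC content ran from 53.0% at GAS8/DBNDD1 to 67.7% at the TTLL2 distal site, above the median of 52.7% in all 5.

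Of the other motifs counted in these windows on both strands, none of which contains another, AGGAAG, the core of many ETS-family sites, occurred 5 times at the TTLL2 distal site and 2 times at FABP6, and 63.4% of all peaks held it. TGTGGT, the core of RUNX sites, occurred 3 times at GAS8/DBNDD1 alone, against 28.5% of all peaks with at least 1. The GATA-type motifs AGATAA, GATAAGATA and GACAAGATA, the last related to sites of the first zinc finger domain of EVI1, and GATGAG, related to those of the second, were found at none of the 5, and 17.3%, 0.184%, 0.535% and 19.6% of all peaks held them.

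**Figure D1:**
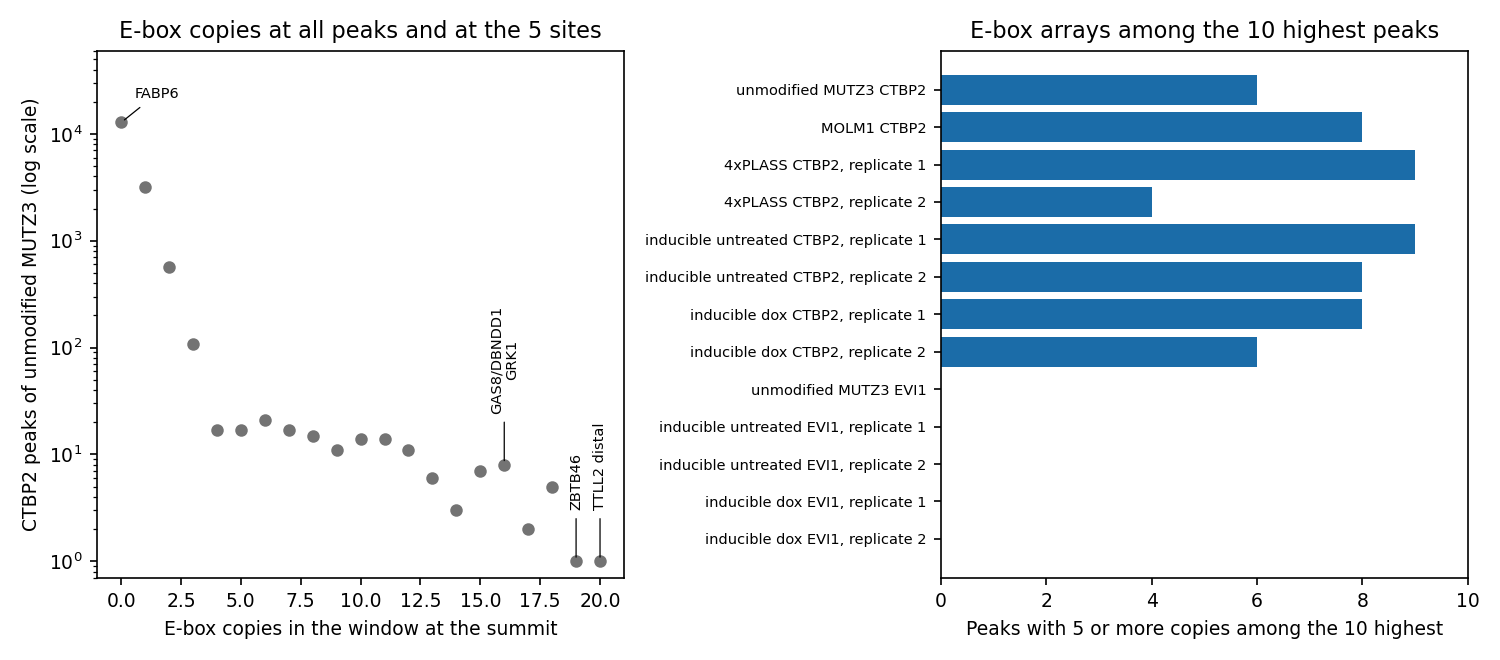
Left, number of CTBP2 peaks of unmodified MUTZ3 cells (log scale) by E-box copies in 300 bases at the summit, with the 5 sites named. Right, number of peaks with 5 or more copies among the 10 highest of each of the 13 lists, with CTBP2 bars between 4 and 9 and no such peak in the 5 EVI1 lists.

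Peaks with such arrays were also frequent at the very top of the other CTBP2 lists. Of the 10 highest peaks, those with 5 or more copies numbered 6 in unmodified MUTZ3, 8 in MOLM1, 9 and 4 in the 4xPLASS libraries, 9 and 8 in the untreated inducible libraries and 8 and 6 in the dox libraries. Over the whole CTBP2 lists such peaks made up 0.270% to 2.40%, and among the 100 highest they numbered 11 to 39, with a median of 0 or 1 copies. In each of the 5 EVI1 lists the count was 0 of 10 and at most 1 of 100, and such peaks made up 0.216% to 0.482% of the list, shares at which a count of 0 of 10 says little. The 5 sites themselves made up 20 of the 70 highest peaks of the 7 other CTBP2 lists. The remaining 50 peaks came from 24 loci, of which 12 had 5 or more copies.

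The 5 sites were then followed through the other lists by rank. Of 35 pairs of a site with another CTBP2 list, 34 had a peak that overlapped the site by at least 1 bp, and 33 of them were in the top 1% of their list. FABP6 was the exception in both counts, with no peak in MOLM1 and a rank in the top 3.35% of 4xPLASS replicate 1. For comparison, of all peaks in the unmodified CTBP2 list, 70.2% were also called in MOLM1, 29.9% in both 4xPLASS libraries, 76.1% in both untreated inducible libraries and 54.9% in both dox libraries. This background holds peaks of every strength. Where there are replicates it asks for a call in both, whereas the 34 of 35 counts single lists, so the shares are not like for like. No such share was computed for the top 1%.

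GAS8/DBNDD1 was the highest peak in 5 of the 7 other CTBP2 lists. It ranked 2 in MOLM1 at a fold enrichment of 65.75, 9 at 31.81 in 4xPLASS replicate 1 and 1 at 71.19 in replicate 2, and it was first in all 4 inducible libraries.
The TTLL2 distal site ranked 1 in MOLM1 at 69.07, 2 in both 4xPLASS libraries at 52.02 and 58.78, 5 and 20 in the untreated inducible libraries, and 5 and 6 with dox. In 6 of these 7 lists it stood within the 6 highest peaks.
ZBTB46 ranked 9 in MOLM1 at 59.66. Its ranks in 4xPLASS were 3 at 43.86 in replicate 1 and 162 at 24.82 in replicate 2, so the replicates disagree for this site. It ranked 8 in both untreated inducible libraries, and 16 and 28 with dox.
GRK1 ranked 10 in MOLM1 at 59.38, 10 and 38 in 4xPLASS at 30.67 and 33.26, 16 and 37 in the untreated inducible libraries, and 17 and 33 with dox.

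FABP6 had the widest range of CTBP2 ranks. It ranked 224 at 11.36 in 4xPLASS replicate 1 and 4 at 45.66 in replicate 2. In the inducible cells it ranked 23 and 12 untreated and 46 and 59 with dox. No peak was called at the site in MOLM1, whose list holds 64569 peaks. The MOLM1 list did hold 5 other peaks in the FABP6 window, the highest of them at 21.12 in the interval chr5:159592125-159593024, upstream of FABP6. That interval was called in 9 of 13 lists, but in neither list of unmodified MUTZ3 cells.

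**Figure D2:**
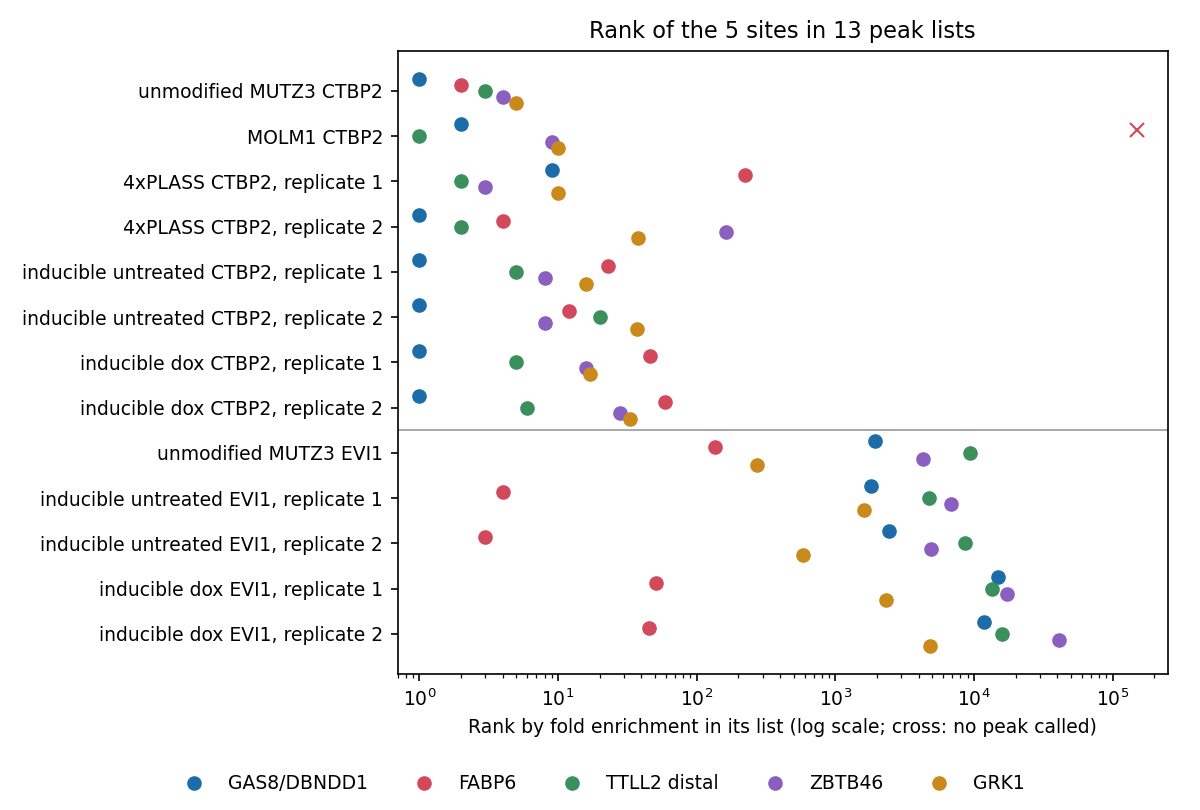
Rank by fold enrichment (x axis, log scale, 1 is the highest peak) of the 5 sites in each of the 13 peak lists, with CTBP2 lists above the line and EVI1 lists below it; the cross marks FABP6 in MOLM1, where no peak was called. The sites stand between ranks 1 and 224 in the CTBP2 lists, and in the EVI1 lists FABP6 stands at 3 to 136 and the other 4 sites at 273 to 41341.

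EVI1 was called at all 5 sites in all 5 EVI1 lists, or in 25 of 25 pairs of site and list. This count was 16 with all lists reduced to the size of the smallest, and 15 where summits had to lie within 200 bp of the CTBP2 summit. The background for the overlap of 1 bp is 54.5% of all CTBP2 peaks of unmodified MUTZ3 cells in the unmodified EVI1 list, 74.7% in both untreated inducible EVI1 libraries and 76.0% in both dox EVI1 libraries. The shares of the inducible libraries ask for a call in both replicates, whereas the 25 of 25 counts single lists. The rank of the EVI1 peaks differed widely between the sites. FABP6 ranked 136 of 21505 in unmodified cells at a fold enrichment of 29.33, and 4 and 3 in the untreated inducible libraries at 85.26 and 122.7. It was thus among the highest EVI1 peaks as well.
GAS8/DBNDD1, first for CTBP2, ranked 1946 for EVI1 in unmodified cells at 12.25, and 1805 and 2453 in the untreated inducible libraries. The TTLL2 distal site ranked 9384 at 6.218 in unmodified cells, and 4710 and 8603 in the untreated inducible libraries. ZBTB46 ranked 4322 at 8.818 in unmodified cells, with 6816 and 4886 in the untreated inducible libraries. The 8.818 is the higher of 2 EVI1 peaks of unmodified cells there and lies at the edge of the site. The other, nearer the CTBP2 summit, had 5.324. GRK1 was intermediate, at 273 and a fold enrichment of 24.83 in unmodified cells, and at 1600 and 583 in the untreated inducible libraries. In every EVI1 list the 4 array sites ranked below FABP6.

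The distances between summits also differed between the sites, but not in the order of the EVI1 ranks. At FABP6 the EVI1 summit of unmodified cells lay 24 bp from the CTBP2 summit, and all 11 lists other than the unmodified CTBP2 list that called the site placed their summit within 64 bp. At GAS8/DBNDD1 the EVI1 summit of unmodified cells lay 334 bp away, and the EVI1 summits of the inducible libraries lay 199 to 373 bp away. The CTBP2 summits moved there as well, by 4 to 331 bp in the other lists. At GRK1 the EVI1 summits lay 153 to 315 bp away, while those of CTBP2 stayed within 43 bp. At the TTLL2 distal site the EVI1 summits lay 1 to 80 bp away. At ZBTB46 the unmodified list called 2 separate EVI1 peaks, the higher one with its summit 624 bp away. The EVI1 summits of the inducible libraries lay 8 to 324 bp away there, and the CTBP2 summits of the other lists 38 to 222 bp. The median distance over all 9181 CTBP2 peaks with an EVI1 peak was 40 bp in unmodified cells. The 5 sites are 875 to 1478 bp wide, against medians of 231 bp in the unmodified CTBP2 list and 209 bp in the unmodified EVI1 list. Narrow peaks leave less room between summits, so the distances are not like for like. The part of the repeats in these distances was not tested.

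The question of the inducible experiment is what happens at these sites when the competitor peptide is induced. CTBP2 enrichment at GAS8/DBNDD1 was 136.9 and 136.6 in the untreated libraries and 53.99 and 73.91 with dox. At FABP6 it was 64.41 and 61.24 untreated and 23.28 and 24.32 with dox. At the TTLL2 distal site it was 112.7 and 53.52 untreated and 45.13 and 43.31 with dox. Every dox value was below every untreated value at these 3 sites, with the widest replicate gap in the untreated libraries of the TTLL2 distal site.
ZBTB46 had 94.74 and 72.15 untreated and 33.93 and 29.01 with dox. GRK1 had 73.89 and 46.74 untreated and 33.21 and 28.29 with dox. Here too the groups did not overlap.
The difference of the mean log2 fold enrichment, dox minus untreated, was −1.11 for GAS8/DBNDD1, −1.40 for FABP6, −0.81 for the TTLL2 distal site, −1.40 for ZBTB46 and −0.94 for GRK1. In an exact two-sided permutation test, 2 against 2 libraries cannot give a p-value below 0.333, and each site gave 0.333. All 5 sites were lower in both dox libraries, against 75.4% of the 8579 CTBP2 peaks of unmodified cells that were called in all 4 libraries, and the median difference of the latter was −0.94. The 5 sites thus lay on both sides of that median, with 21.4% to 57.8% of all peaks below them. Without untreated replicate 1 the difference at the TTLL2 distal site was −0.28.

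EVI1 enrichment was lower with dox at the same 5 sites. GAS8/DBNDD1 had 21.09 and 25.96 untreated and 8.166 and 8.382 with dox. ZBTB46 had 12.04 and 19.09 untreated and 7.53 and 3.772 with dox, the last from a weak peak at rank 41341 of 47599. These 2 sites had log2 differences of −1.50 and −1.51, and only 1.53% and 1.46% of the 11845 peaks with EVI1 in all 4 libraries lay lower.
The TTLL2 distal site had 14.24 and 14.2 untreated and 8.696 and 7.137 with dox, a difference of −0.85. GRK1 had 22.02 and 44.06 untreated and 20.11 and 12.87 with dox, a difference of −0.95, or −0.45 without untreated replicate 2. FABP6 had 85.26 and 122.7 untreated and 61.41 and 55.15 with dox, a difference of −0.81.
In fold enrichment the groups did not overlap at any of the 5 sites, and the exact two-sided permutation p was again 0.333 for each, the smallest this design allows. With −log10 p in place of fold enrichment, the EVI1 groups overlapped at FABP6, 555.8 and 776.9 untreated against 603.1 and 537.3 with dox, where the log2 difference was −0.21 and the exact permutation p 0.667. They also overlapped at GRK1, with a difference of −0.93 and an exact permutation p of 0.667. Of the 11845 peaks, 36.5% were lower in both dox libraries, with a median difference of −0.26. All 5 sites lay below that median, with 1.46% to 16.7% of the peaks below them. In rank, FABP6 moved from 4 and 3 to 51 and 45, and GAS8/DBNDD1 from 1805 and 2453 to 15033 and 11763.

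**Figure D3:**
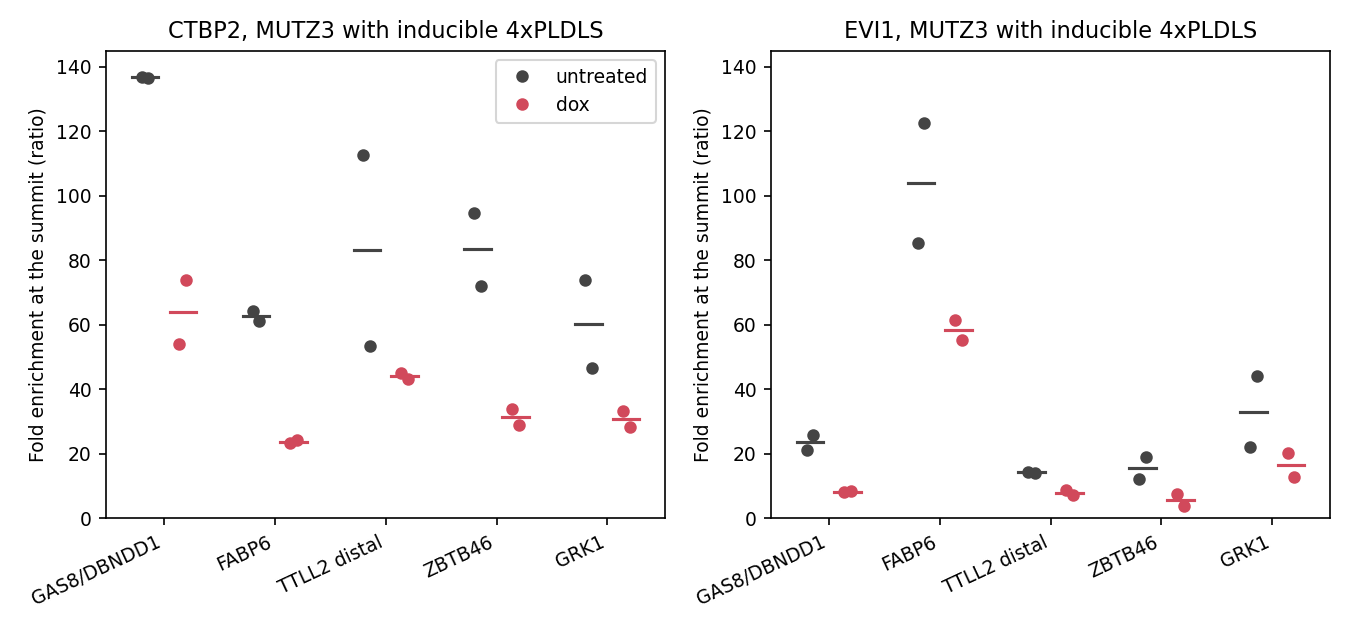
Fold enrichment (y axis, linear) at the 5 sites in the untreated and dox libraries of MUTZ3 cells with inducible 4xPLDLS, CTBP2 on the left and EVI1 on the right; points are libraries and lines are the means of 2. Dox points lie below untreated points at every site for both targets in fold enrichment, and for EVI1 the FABP6 site stands far above the other 4.

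The 153 peaks with 5 or more E-box copies, which include 4 of the 5 sites, were set beside the 12783 peaks with none, as a description without a test. Of the 153, 97.4% were called in both untreated inducible CTBP2 libraries and 85.0% in both dox CTBP2 libraries, against 73.6% and 54.2% of the peaks with none. In both 4xPLASS libraries it was 63.4% against 29.6%, and in MOLM1 69.9% against 70.2%. For EVI1 the order was the other way in unmodified cells, 39.2% against 55.3%, and in both dox libraries, 49.7% against 74.9%. In both untreated EVI1 libraries it was 77.1% against 72.5%. The median log2 difference with dox was −0.98 for CTBP2 at the array peaks and −0.91 at the peaks with none, and for EVI1 it was −0.85 and −0.24. These medians cover only peaks called in all 4 libraries of the target, 130 and 6356 for CTBP2 and 76 and 8774 for EVI1. The median distance between EVI1 and CTBP2 summits was 162.5 bp at the array peaks and 39 bp at the peaks with none. It covers the 60 and 7071 of them that overlap an EVI1 peak of unmodified cells, and peak width was not matched. The array peaks had a median fold enrichment of 7.16 in the unmodified CTBP2 list, against 5.37, so they also differ in strength.

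Beyond the highest site, the windows of the 6 genes held few peaks in unmodified cells. The unmodified CTBP2 list called 11 different peaks in the 6 windows, 4 at ZBTB46, 1 at GRK1, 2 each at FABP6 and TTLL2, and 2 that the windows of GAS8 and DBNDD1 share. The second peak of a window was weaker, between 4.111 at FABP6 and 12.01 at ZBTB46, and GRK1 had no second peak. A CTBP2 peak of unmodified cells lay in the window of 55.0% of the 20163 protein-coding genes. TTLL2 itself had a peak of 8.08 in an intron, rank 2575, at chr6:167764594-167765104. It held 1 CAGGTG and was called in 11 of the 13 lists when overlapping peaks were merged, without 4xPLASS replicate 1 and dox CTBP2 replicate 2. The EVI1 peak of unmodified cells in this merged interval, at 5.797, did not overlap the intron peak itself. EVI1 was 8.251 and 10.28 there in the untreated libraries and 7.79 and 7.124 with dox, a log2 difference of −0.31.

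Several weaker intervals in the windows recurred across lists. In an exon of DBNDD1, chr16:90073806-90076070 was called in 12 lists. Its CTBP2 enrichment was 6.976 in unmodified cells, 23.16 and 7.382 untreated and 5.743 and 3.81 with dox. Its EVI1 enrichment was 14.25 in unmodified cells, 17.5 and 24.06 untreated and 27.78 and 19.66 with dox. The EVI1 values of the treatments overlapped at this interval, in contrast to the intron site of GAS8 next to it.
In an intron of ZBTB46, chr20:62453283-62454733 was called in 12 lists. CTBP2 was 12.01 in unmodified cells, 19.21 and 12.53 untreated and 3.83 and 4.981 with dox. EVI1 was 27.11 in unmodified cells, 20.59 and 42.28 untreated and 29.4 and 28.23 with dox. Again the EVI1 groups overlapped and those of CTBP2 did not. A second ZBTB46 interval called in 12 lists lay upstream of its start at chr20:62477085-62480441, with CTBP2 at 20.96 and 12.73 untreated and 5.49 and 6.264 with dox.
In the FABP6 window, both recurrent intervals downstream of the gene lay in CCNJL, which encodes a cyclin J-like protein. Other intervals recurred upstream of FABP6. The one in an exon, chr5:159687550-159688655, was called in 12 lists and had EVI1 at 13.67 in unmodified cells. The one in an intron, chr5:159689406-159690163, was called in 11. In the GRK1 window, chr13:114461278-114463090 was called in 11 lists and lay at −194 bp from the start of TMEM255B. Its enrichment stayed between 4.396 and 12.75 in all of them.

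Over the windows, merged intervals numbered 11 at GAS8, 10 at DBNDD1, 18 at FABP6, 31 at ZBTB46, 16 at GRK1 and 11 at TTLL2. Intervals with peaks of both targets were 6, 6, 9, 17, 9 and 3 of these. The interval of the highest site was called in all 13 lists at GAS8/DBNDD1, ZBTB46 and GRK1 and in 12 at FABP6. Other protein-coding genes with a body in a window were PRDM7 at GAS8, CCNJL at FABP6, UNC93A at TTLL2, TFDP1, ATP4B and TMEM255B at GRK1, and ZGPAT, LIME1, SLC2A4RG and ABHD16B among those at ZBTB46.

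**Figure D4:**
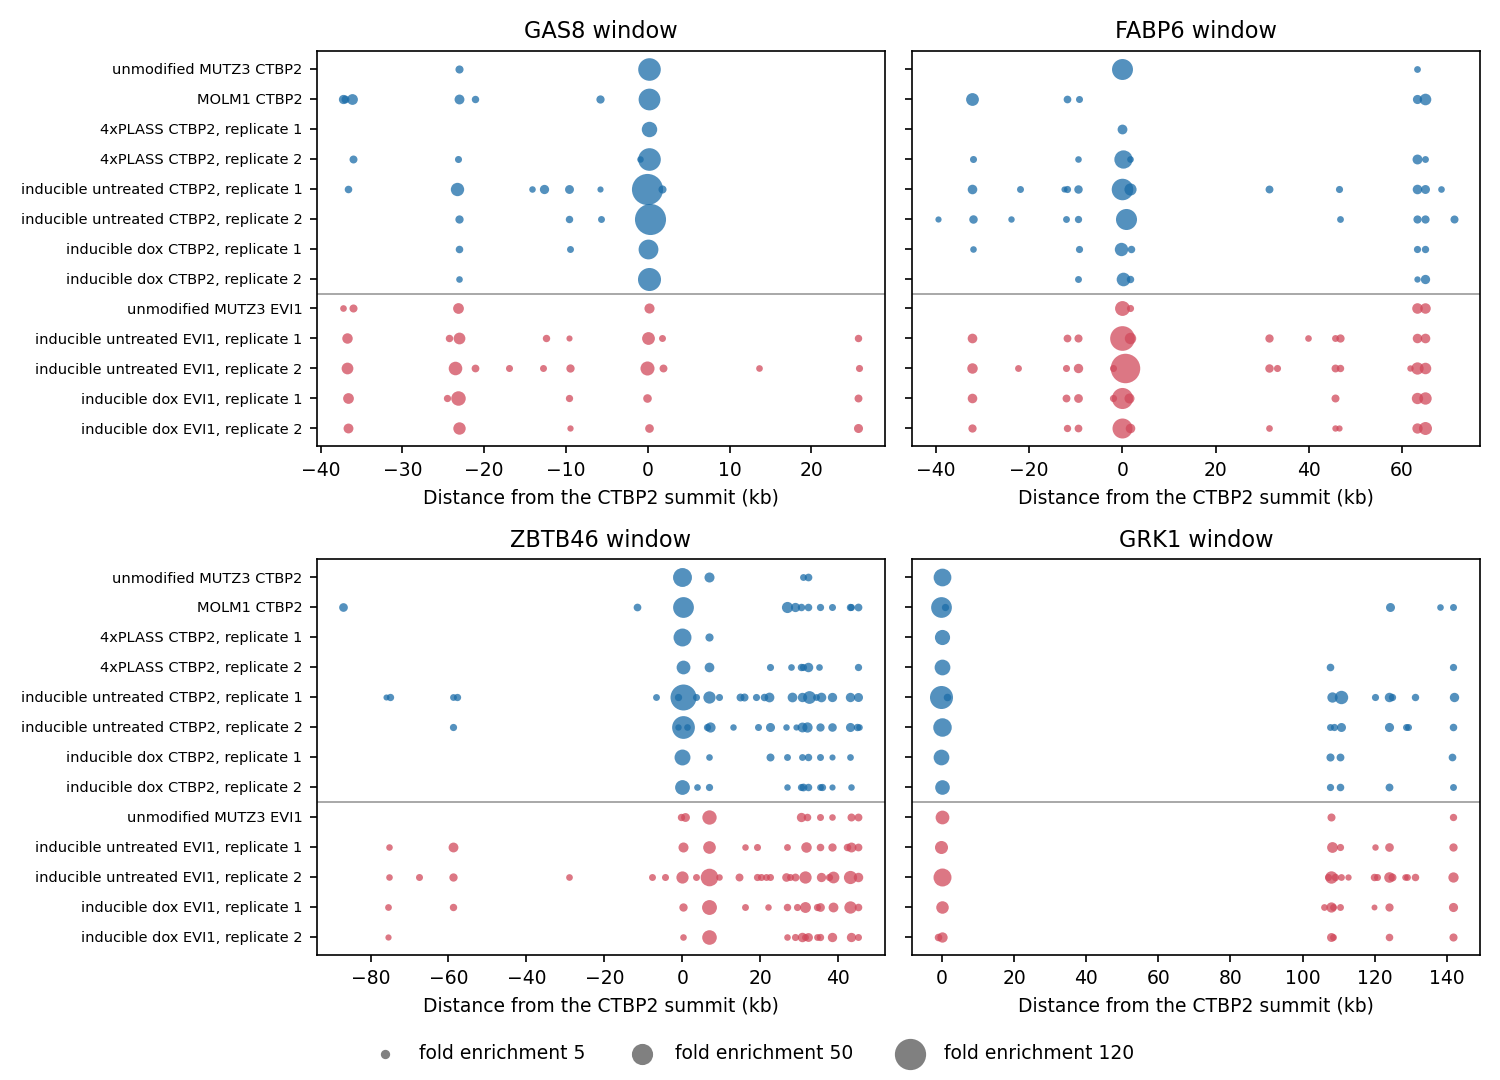
Peaks of each list (rows) in the windows of GAS8, FABP6, ZBTB46 and GRK1 by distance of the peak centre from the CTBP2 summit of unmodified MUTZ3 cells (x axis, kb), CTBP2 in blue and EVI1 in red, with dot area rising with fold enrichment. The large dots near 0 lie at the sites of the highest CTBP2 peaks. At FABP6 the largest of them are EVI1 peaks of untreated inducible cells, and MOLM1 has none there.

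The number of CTBP2 peaks in the 6 windows, each peak counted once, was 57 and 43 in the untreated libraries and 23 in both dox libraries. The log2 ratio of the means was −1.12, against −1.29 for the whole lists, and the exact two-sided permutation p was 0.333. For EVI1 it was 40 and 66 untreated and 39 and 36 with dox, a log2 ratio of −0.50 against −0.29 for the whole lists and the same exact permutation p. Without untreated replicate 2 the EVI1 ratio was −0.09. ZBTB46 held the most CTBP2 peaks, 23 and 18 untreated and 9 and 11 with dox, and TTLL2 the fewest, 5 and 3 untreated and 1 and 0 with dox.

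Relatives of the 6 genes were counted from family lists to show how common such peaks are. A CTBP2 peak of unmodified cells lay in the window of 32 of 50 relatives, or 64.0%, against the 55.0% of all genes above. Of 9 other genes of the nexin-dynein regulatory complex 4 had one, led by DRC7 at rank 240 with 17.31. Of 11 relatives of FABP6 3 had one, none above FABP2 at rank 8841 with 5.166. All 6 other GRK genes had one, led by GRK4 at rank 765 with 12.31, and 9 of 13 tubulin tyrosine ligase genes, led by TTLL3 at rank 438 with 14.51. Both dysbindin relatives of DBNDD1 had one, led by DBNDD2 at rank 3317 with 7.389, and 8 of 9 BTB zinc finger genes of blood cells, led by ZBTB7A at rank 722 with 12.42.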

How the data were processed

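The members and gene lists were chosen with earlier results of these data known. The authors aligned single-end or paired-end reads, depending on the sequencer, to hg19 with bowtie (1.1.1). They called peaks library by library, with a matched input, using the defaults of MACS2 (2.1.2 in the submitters' processing notes). The inputs of the inducible cells, an untreated and a dox input, have no replicates. The libraries of a treatment therefore had no inputs of their own. The part of the inputs in the dox differences was not tested. The deposited fold enrichment is a ratio of summit signal to local background. Significance of the summit was deposited as −log10 p and −log10 q, and the deposited summit offset gave distances. Filters on reads are not given in the sources used here, and the lists hold no counts, so no interval or count model was used.

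Peaks were ranked by fold enrichment within a list. Windows were gene bodies plus 30 kb either side in GENCODE release 44 mapped to GRCh37, with an older model for GRK1. Lists were compared by an overlap of at least 1 bp, and the highest overlapping peak gave the value. Dox and untreated libraries were compared by exact two-sided permutation tests of log2 values. Sequences were read from GRCh37 in 300-base windows at the summits, and that of FABP6 is not reported here. The genes named are the 6 members, the 10 highest peaks, intervals called in at least 7 lists, neighbours, and the best relative of each family. Alternatives covered thresholds on −log10 q and enrichment, overlap rules, list size, ranking, window size, scaling, the replicate block and leaving out libraries. Functions were tested on simulated data. Python 3.11.15, numpy 2.4.6 and pandas 2.3.3 were used.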

Additional observations from a re-analysis of the deposited data

How the results depend on the processing

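All 132 alternative values of the 13 dox comparisons kept their sign, but many of them could not have changed it. At the sites, the thresholds and the nearest summit picked the same peaks, and the replicate blocks equal the main value by construction. Leaving out a library cannot reverse groups that do not overlap. The count is therefore no measure of robustness. The exact permutation tests cannot give a p below 0.333, so none of them bears on a threshold. With −log10 p in place of fold enrichment, EVI1 gave −0.21 at FABP6 and −0.93 at GRK1, both at an exact permutation p of 0.667, and the EVI1 window counts gave −0.20 with a −log10 q of at least 5 and −0.25 with an enrichment of at least 5. With the replicate block, in an exact sign-flip test whose smallest p is 0.5, the log2 differences were the same and the window counts gave −1.11 for CTBP2 and −0.46 for EVI1. The deviations of same-numbered libraries correlated with r = 0.247 for CTBP2 and, in the opposite direction, −0.343 for EVI1. The labels name no shared culture, so the numbers were not taken as pairs. The crossed replicate block for EVI1, added after seeing the data, has the same smallest p and so can call 0 of 6 sites whatever the values. The site and EVI1 list pairs called fell from 25 of 25 to 16 with lists cut to equal size and to 15 with summits within 200 bp. Those choices left 34 and 29 of 35 CTBP2 pairs. Without each library in turn, CTBP2 differences ran from −1.34 to −0.89 at GAS8/DBNDD1, −1.44 to −1.36 at FABP6, −1.35 to −0.28 at the TTLL2 distal site, −1.59 to −1.20 at ZBTB46 and −1.27 to −0.61 at GRK1, and for EVI1 from −1.65 to −1.35, −1.08 to −0.55, −0.99 to −0.71, −2.01 to −1.01 and −1.45 to −0.45 in the same order. The window counts ran from −1.31 to −0.90 for CTBP2 and −0.82 to −0.09 for EVI1, and the TTLL2 intron peak from −0.47 to −0.15 for EVI1. Values at a minimum enrichment of 5 or a −log10 q of at least 5 could not be computed at ZBTB46 for EVI1, which falls below both in 1 dox library. With depth unknown, a site without a peak is not shown to be unbound.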
